A study of Mus musculus with 10 samples.

Results

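The GATA factors and their Zfpm cofactors were followed across H3K27me3 profiles of mouse macrophages. H3K27me3, trimethylation of lysine 27 of histone H3, is the mark laid down by Polycomb repressive complexes. The set is the 7 autosomal genes Gata2, Gata3, Gata4, Gata5, Gata6, Zfpm1 and Zfpm2 chosen by symbol, out of 20661 autosomal protein-coding genes in the gene table. All 7 were found in the table. Each gene was measured over its mm10 body with 5 kb added at either end, called its window here. The X-linked family member Gata1 is not part of the set.

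Chromatin was immunoprecipitated with an H3K27me3 antibody from macrophages grown out of C57BL/6 bone marrow for 7 days in 20 ng/ml M-CSF, and there are 10 libraries. Knockout (KO) cells carried Eif2ak3 fl/fl x LysMcre, in which the lysozyme M promoter drives Cre in myeloid cells and deletes the gene of the stress kinase PERK. Wild type (WT) cells carried Eif2ak3 fl/fl without Cre, so both genotypes share the floxed allele. Cells were given 20 ng/ml IL-4 for 24 h (M2), 20 ng/ml LPS with 50 ng/ml interferon-gamma for 24 h (M1), or nothing (M0). The M2 and M1 states have 2 biological replicates per genotype and M0 has 1 library per genotype. Of 10 macrophage markers 7 (Csf1r, Adgre1, Itgam, Cd68, Lyz2, Spi1 and Cd14) had 0% of their windows under called regions in all 10 libraries. The Eif2ak3 deletion cannot be read from a histone mark, and the genotypes are those of the labels.

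GATA factors are zinc finger transcription factors that bind the DNA letters GATA. Gata2 maintains blood stem and progenitor cells and mast cells, Gata3 directs T helper type 2 cells, and Gata4, Gata5 and Gata6 act in heart, gut and endoderm. Gata6 also sets the identity of resident macrophages of the peritoneal cavity. Zfpm1 and Zfpm2, also called Friend of GATA proteins, do not need to bind DNA themselves: they bind the GATA zinc finger and can recruit the NuRD corepressor complex. Polycomb complexes often hold lineage regulators of this kind silent in cells of other lineages, and they tend to settle on promoters rich in CpG dinucleotides.

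The promoter sequences are shown because the members differed in whether a called region lay over the promoter. RefSeq promoter sequences (GRCm38.p6, 250 bases before to 50 bases after a gene start) matched 4 of the 7 members with 5 entries, Gata2 having 2 starts. They are written 5′ to 3′ on the strand of the gene, with CpG dinucleotides in capitals.
Gata2 upstream start, chr6:88193641-88193940, plus strand: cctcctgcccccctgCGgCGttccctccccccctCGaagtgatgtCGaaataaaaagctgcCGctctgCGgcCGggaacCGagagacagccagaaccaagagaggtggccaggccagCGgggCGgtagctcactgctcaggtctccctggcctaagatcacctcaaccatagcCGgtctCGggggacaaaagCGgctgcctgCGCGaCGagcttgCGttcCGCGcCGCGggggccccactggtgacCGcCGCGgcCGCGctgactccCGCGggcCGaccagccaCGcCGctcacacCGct
Gata2 downstream start, chr6:88198414-88198713, plus strand: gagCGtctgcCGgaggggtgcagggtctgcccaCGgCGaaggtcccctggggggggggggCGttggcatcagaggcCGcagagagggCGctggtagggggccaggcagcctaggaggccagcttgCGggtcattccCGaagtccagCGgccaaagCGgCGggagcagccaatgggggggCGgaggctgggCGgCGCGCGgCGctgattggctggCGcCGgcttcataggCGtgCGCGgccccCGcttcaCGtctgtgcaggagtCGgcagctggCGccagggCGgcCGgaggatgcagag
Gata3, chr2:9878551-9878850, minus strand: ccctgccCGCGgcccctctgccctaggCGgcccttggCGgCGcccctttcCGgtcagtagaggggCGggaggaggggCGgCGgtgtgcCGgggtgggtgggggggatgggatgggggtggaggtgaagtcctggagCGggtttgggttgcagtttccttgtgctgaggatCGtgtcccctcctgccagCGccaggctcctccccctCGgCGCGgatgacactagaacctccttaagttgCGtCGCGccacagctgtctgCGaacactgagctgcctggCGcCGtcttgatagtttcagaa
Gata5, chr2:180334630-180334929, minus strand: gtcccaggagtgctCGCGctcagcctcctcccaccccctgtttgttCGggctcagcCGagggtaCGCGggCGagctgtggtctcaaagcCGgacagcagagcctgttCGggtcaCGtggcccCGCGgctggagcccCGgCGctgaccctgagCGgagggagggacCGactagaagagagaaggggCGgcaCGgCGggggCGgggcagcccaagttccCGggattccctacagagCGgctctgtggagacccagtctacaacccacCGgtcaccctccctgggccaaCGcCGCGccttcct
Zfpm1, chr8:122281891-122282190, plus strand: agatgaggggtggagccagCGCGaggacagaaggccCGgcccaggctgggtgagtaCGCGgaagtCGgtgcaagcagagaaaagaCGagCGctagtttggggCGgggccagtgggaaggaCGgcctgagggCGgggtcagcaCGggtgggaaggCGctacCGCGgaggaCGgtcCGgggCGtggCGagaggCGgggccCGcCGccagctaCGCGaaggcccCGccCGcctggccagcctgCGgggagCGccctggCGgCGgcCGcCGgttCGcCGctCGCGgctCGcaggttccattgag

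All 5 sequences held many CpG dinucleotides beside the median of 7 over all 32851 promoters. The upstream Gata2 start had 32, the downstream Gata2 start 29, Gata3 22, Gata5 26 and Zfpm1 37. A count at least that high was present in 9.52% of promoters for the upstream Gata2 start, 12.9% for the downstream one, 23.1% for Gata3, 16.9% for Gata5 and 5.58% for Zfpm1. The cover of these promoters differed. The Gata2, Gata3 and Gata5 promoters lay wholly under a called region in all 10 libraries, whereas the CpG-richest of the 5, that of Zfpm1, lay wholly under one in 1 library (WT M0) and had no cover in 7. Of the other 2 libraries, KO M2 replicate 2 covered 52% of the Zfpm1 promoter and KO M1 replicate 1 0.667%. A GATA motif, searched on both strands as GATA with A or T before it and A or G after it (AGATAA is one of the 4 forms), was found in the Gata3 promoter alone of the 5, as TGATAG starting at base 287 of the printed sequence. Of all promoters, 29.8% hold such a motif.

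The libraries held 12.6 to 20.9 megatags, of which 41.3% to 64.1% lay in 32320 to 39658 called regions. Called regions covered 156 to 250 Mb of the autosomes. The estimated fragment length was 178 to 190 bp in the 8 stimulated libraries and 352 and 372 bp in the M0 libraries. M0 is therefore set against the stimulated states as values without a test, while the M0 pair enters the KO against WT comparison, which is made within states. The WT replicate 1 libraries stood apart: regions covered 52.9 Mb of the X chromosome in WT M2 replicate 1 and 31.3 Mb in WT M1 replicate 1, against 0.687 to 0.991 Mb in the other 8. WT M2 replicate 1 also had the lowest share of tags in regions and the smallest autosomal cover of the 8 stimulated libraries, 179 Mb. Values without these libraries are given beside the KO minus WT results of Zfpm1, Gata5 and the other genes named for a separation of genotypes.

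All 7 members carried H3K27me3 in all 10 libraries, but in different amounts. Gata4, Gata5 and Gata2 were under called regions over nearly their whole windows, Gata3 over most of its window and Gata6 over part. Zfpm1 was covered in patches and Zfpm2 at 1 short stretch, with further short regions in some libraries. The median over the 10 libraries was 100% for Gata4 and for Gata5, 94.7% for Gata2, 67.7% for Gata3, 45.2% for Gata6, 14.3% for Zfpm1 and 0.912% for Zfpm2. Neighbours in this order overlapped in range for Gata4, Gata5 and Gata2. From Gata2 down, each gene's lowest library lay above the highest library of the next gene except for Zfpm1, whose highest library (40.9%) reached above the lowest Gata6 library (29.4%) and whose lowest (1.94%) lay below the highest Zfpm2 library (2.82%). Over the 7 members the median of the mean percent was 68.0%, and 4 of 7 had at least 50% of the window covered in every library. Over all 20661 genes the median was 0.563%, and 1636 had such cover.

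**Figure D1:**
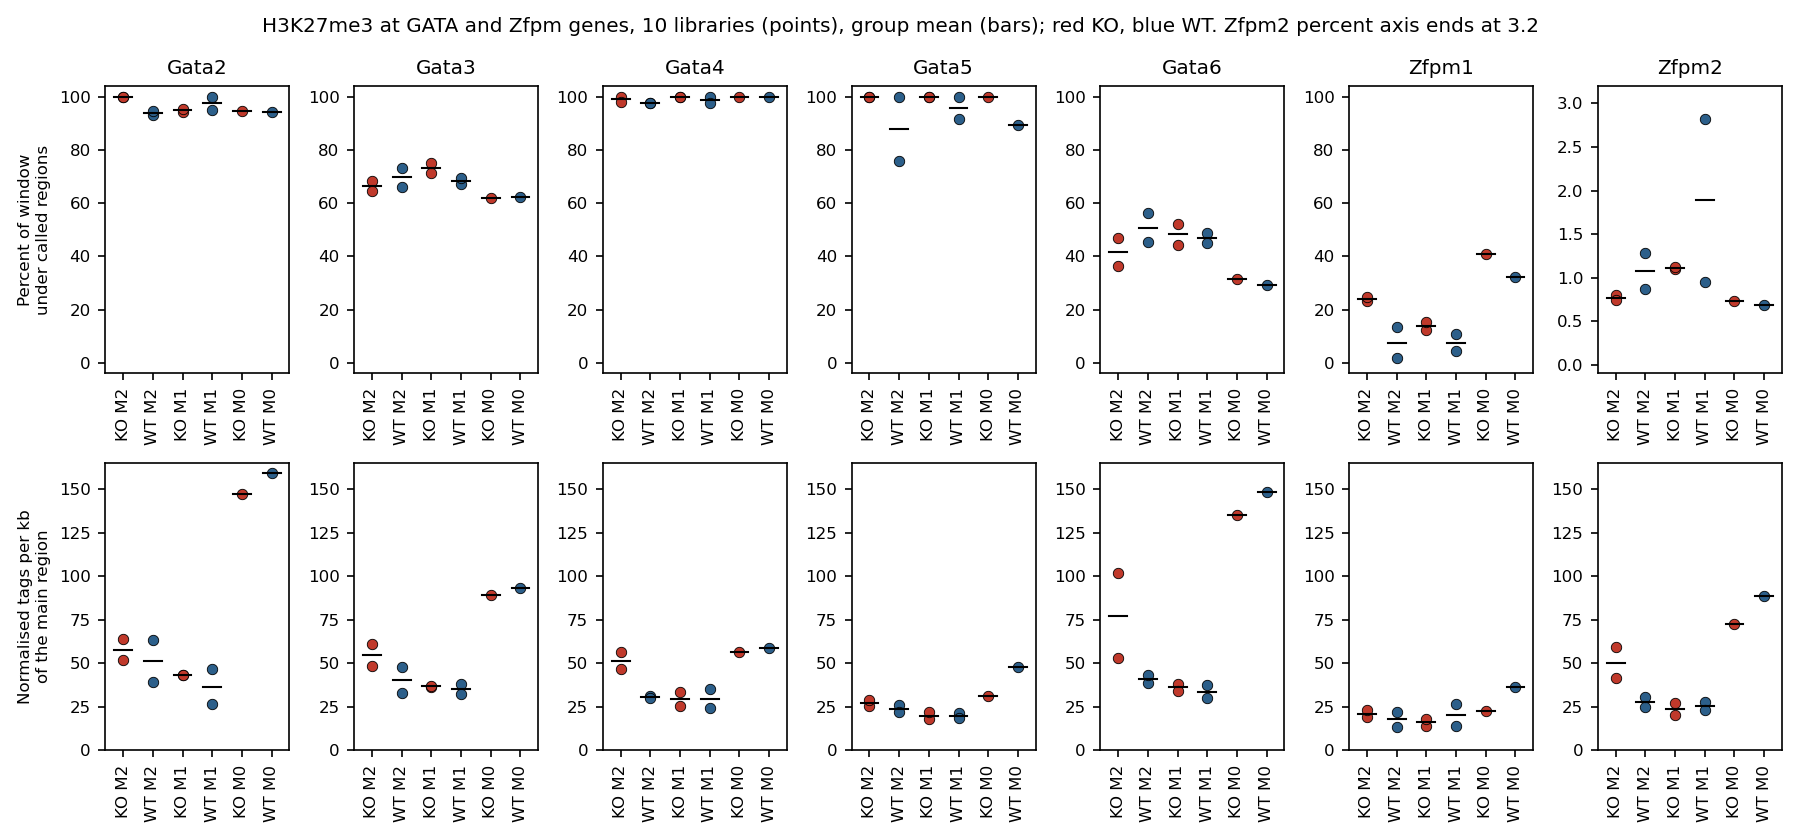
Percent of each gene window under called H3K27me3 regions (upper row) and normalised tags per kb of the main region (lower row) in the 10 libraries, with points for libraries, bars for group means, red for KO and blue for WT. The main region is the called region with the most overlap with the gene window. For Zfpm1 this is the region past the far end in the 2 WT replicate 1 libraries and the region at the gene start in the others. In the upper row Gata2, Gata4 and Gata5 lie near 100%, Zfpm1 lies higher in KO than in WT in each state, and the Zfpm2 axis ends at 3.2%. In the lower row the M0 points of Gata2, Gata3, Gata6 and Zfpm2 lie above those of every stimulated library.

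Gata2, the blood stem cell and mast cell factor (NCBI gene 14461, chromosome 6, 88193891 to 88207032), had its whole body under a single called region in all 10 libraries. Cover of its window was 100% in both KO M2 libraries, 93.0% and 94.5% in WT M2, 94.4% and 95.2% in KO M1, 94.9% and 100% in WT M1, 94.4% in KO M0 and 94.3% in WT M0. The 3 libraries at 100% are those in which the region ran on past the gene. Counted from the low-coordinate end of the gene, the region began at -9.54 to -7.51 kb. In 7 libraries it ended at 16.5 to 17.0 kb, with an SD of 0.161 kb, so the edge was placed almost alike in libraries of all 3 states. In both KO M2 libraries and WT M1 replicate 2 it ended at 55.3 to 58.2 kb. The gene of the testis chaperone Dnajb8, at 28.4 kb, was 100% covered in all 10 libraries, so what differed was whether the calls over Gata2 and Dnajb8 were joined into 1 region. The longer regions stopped short of Eefsec, a selenoprotein elongation factor gene that starts at 63.4 kb.

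The Gata2 region was among the densest in the genome. Its normalised tags per kb were 51.9 and 63.9 in KO M2, 39.0 and 63.1 in WT M2, 43.2 and 43.5 in KO M1, 46.9 and 26.5 in WT M1, 147 in KO M0 and 159 in WT M0. The WT M1 value of 26.5 belongs to the joined region of replicate 2. Within each library this density exceeded that of 92.8% to 99.8% of all called regions of at least 5 kb.

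Gata3, the T helper type 2 factor (NCBI gene 14462, chromosome 2, 9857078 to 9887953, minus strand), was covered from within the gene across its start and beyond. Cover of its window was 68.3% and 64.4% in KO M2, 66.1% and 73.3% in WT M2, 71.4% and 75.0% in KO M1, 67.1% and 69.6% in WT M1, 62.0% in KO M0 and 62.4% in WT M0. The 2 M0 libraries were the lowest of the 10, and the M2 and M1 libraries overlapped. The main region began 7.43 to 11.4 kb from the low-coordinate end, which is the 3′ end of the gene, and its far edge lay at 50.8 to 51.4 kb in the 8 stimulated libraries against 43.6 kb in KO M0 and 43.4 kb in WT M0. A stretch of 24.5 kb was covered in all 10 libraries. The lncRNA genes 4930412O13Rik and 9230102O04Rik near the Gata3 start were wholly covered in all 10, and Taf3, which encodes a subunit of the general transcription factor TFIID and starts at 57.5 kb, had no cover in any. Tags per kb of this region were 48.4 and 61.1 in KO M2, 33.2 and 47.7 in WT M2, 36.6 and 37.1 in KO M1, 37.9 and 32.5 in WT M1, 89.3 in KO M0 and 93.4 in WT M0. In tags per kb KO M2 was narrowly above WT M2, and the M1 genotypes overlapped. Ranked within its own library, the region stood the other way in M2. It was denser than 96.0% and 95.4% of regions of at least 5 kb in KO M2, and than 97.4% and 98.5% in WT M2.

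**Figure D2:**
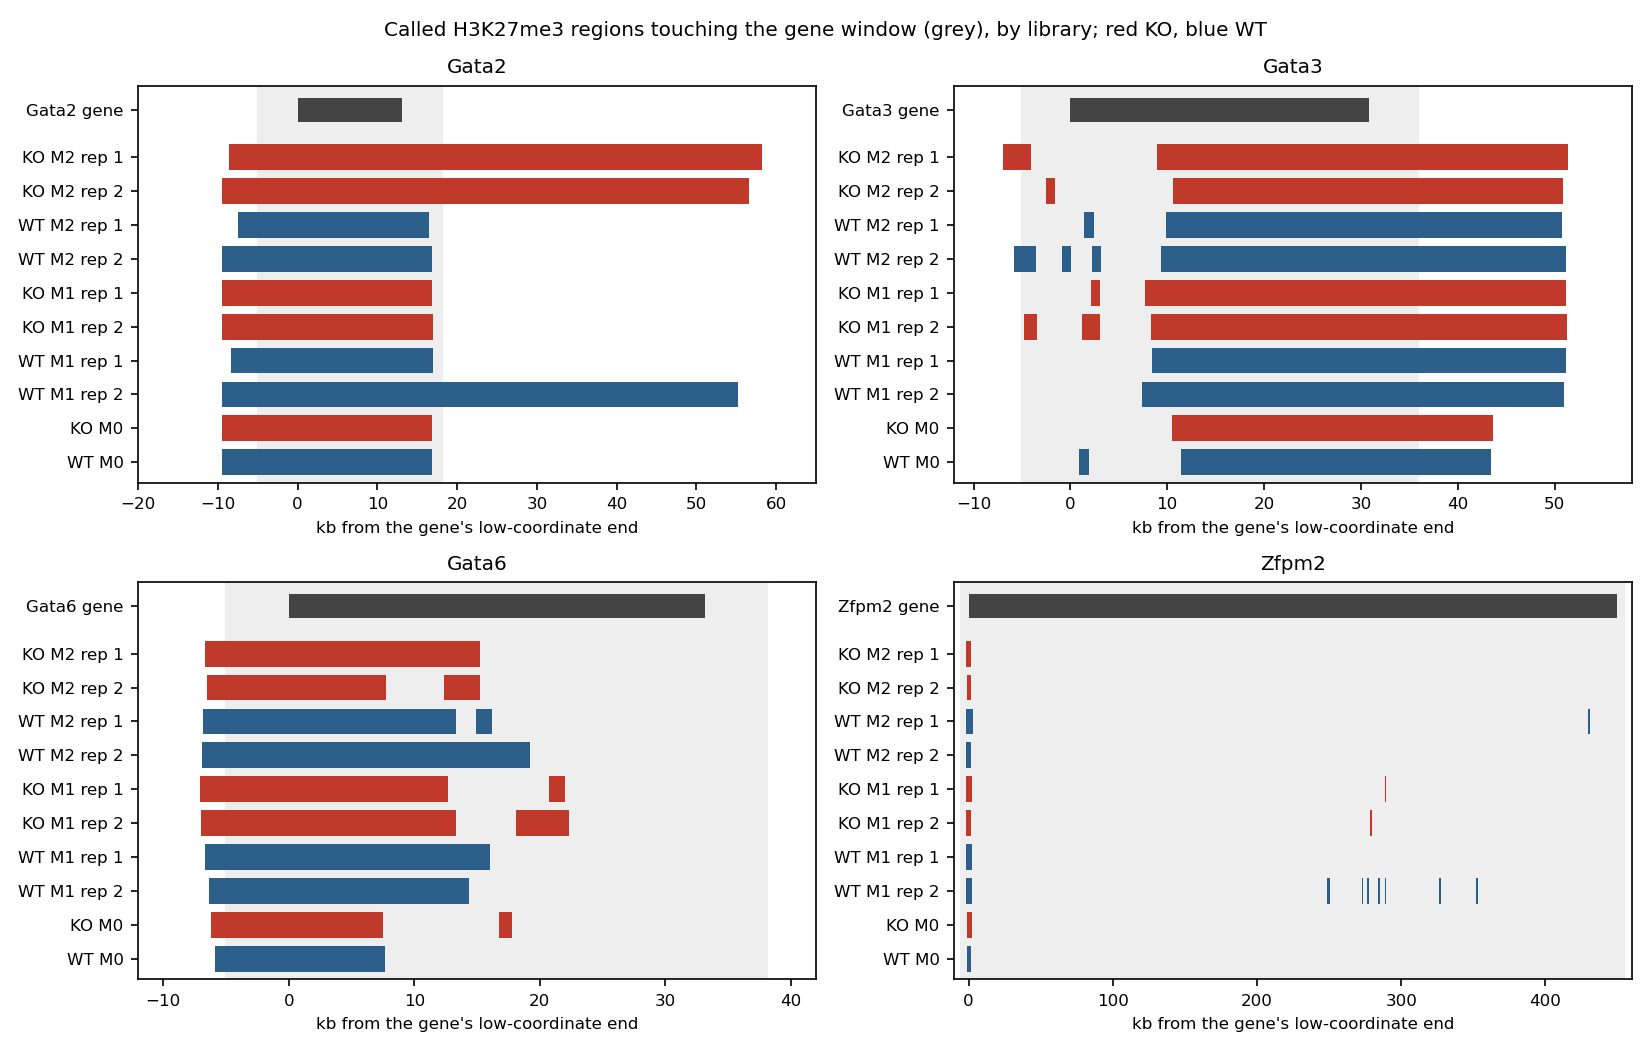
Called H3K27me3 regions that touch the windows of Gata2, Gata3, Gata6 and Zfpm2, 1 row per library, red for KO and blue for WT, on an axis in kb from the low-coordinate end of the gene (dark bar; window in grey). The far edge at Gata2 sits at 16.5 to 17.0 kb in 7 libraries and at 55.3 to 58.2 kb in the other 3, and Zfpm2 carries a short region at its low-coordinate end in all 10.

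Gata4, a factor of heart and foregut development (NCBI gene 14463, chromosome 14, 63198914 to 63271712), had its whole body covered in all 10 libraries. Cover of its window was 100% and 97.9% in KO M2, 97.6% and 97.7% in WT M2, 100% in both KO M1 libraries, 100% and 97.8% in WT M1, and 100% in KO M0 and WT M0. The spread of 2.37 points among libraries came from the low-coordinate flank next to the DNA repair gene Neil2, where the main region began at -13.0 to -2.79 kb. Its other edge varied far more. It lay at 80.0 to 101 kb in 7 libraries and at 249 kb in KO M1 replicate 2, 248 kb in WT M1 replicate 2 and 317 kb in WT M2 replicate 2, past the B cell kinase gene Blk at 174 to 218 kb. Blk was covered over 80.0% to 100% of its length in all 10 libraries, so at Blk the long regions took in a stretch that was largely called in each library. Tags per kb were 46.6 and 56.7 in KO M2, 31.4 and 29.9 in WT M2, 33.6 and 25.5 in KO M1, 35.0 and 24.3 in WT M1, 56.5 in KO M0 and 58.7 in WT M0. In tags per kb KO M2 had the densest Gata4 region of the stimulated groups, without overlap. The replicate 2 values of WT M2, KO M1 and WT M1 belong to the long joined regions. Within its own library, the region was denser than 95.2% and 94.0% of regions of at least 5 kb in KO M2. These shares were 96.3% and 86.7% in WT M2, 96.7% and 87.1% in KO M1 and 96.6% and 88.8% in WT M1. By this measure KO M2 overlapped the other groups.

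Gata5, active in heart and gut epithelium (NCBI gene 14464, chromosome 2, 180325088 to 180335503, minus strand), lay in a wide region of lower density. Cover of its window was 100% in both KO M2 libraries, 75.8% and 100% in WT M2, 100% in both KO M1 libraries, 91.5% and 100% in WT M1, 100% in KO M0 and 89.4% in WT M0. All 5 KO libraries were at 100%, and so were 2 of the 5 WT libraries. The 2 stimulated libraries under 100% are the WT replicate 1 libraries that stood apart on the X chromosome. Their gaps lay at the low-coordinate end, which is the 3′ end of the gene, between -0.556 and 3.62 kb in WT M2 replicate 1 and between -1.50 and 0.245 kb in WT M1 replicate 1. In WT M2 replicate 1 the window was also uncovered from its low-coordinate end to -4.24 kb. The width of the main region ran from 16.7 kb in WT M2 replicate 1 to 152 kb in KO M2 replicate 1, and its density of 17.97 to 47.7 tags per kb exceeded that of 60.0% to 90.4% of regions of at least 5 kb. The antisense gene Gata5os and the muscle microRNA gene Mir1a-1, at 64.0 kb, were wholly covered in all 10 libraries. The second muscle microRNA gene there, Mir133a-2 at 73.3 kb, was wholly covered in 9 libraries and uncovered in KO M1 replicate 1.

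**Figure D3:**
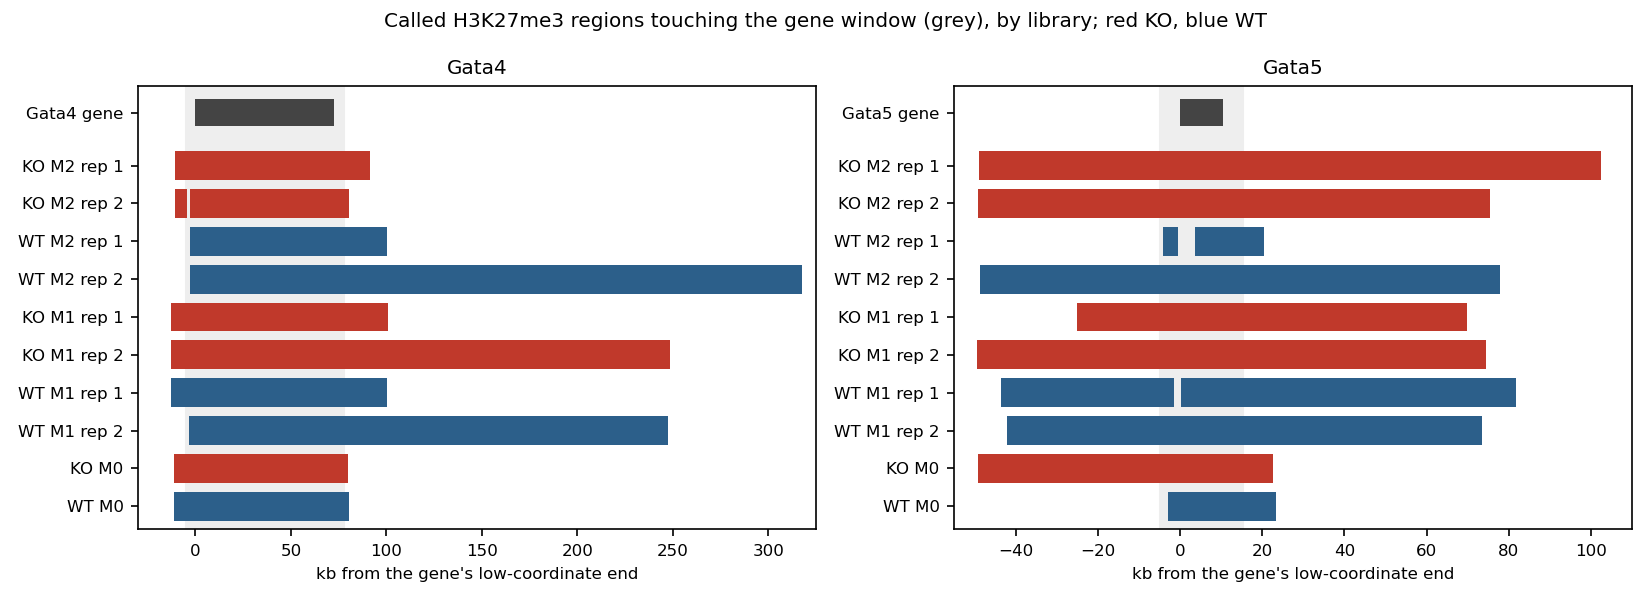
Called H3K27me3 regions that touch the windows of Gata4 and Gata5, 1 row per library, red for KO and blue for WT, on an axis in kb from the low-coordinate end of the gene (dark bar; window in grey). The Gata4 region ends beyond 200 kb in 3 libraries, and the Gata5 region is broken within the window in WT M2 replicate 1 and WT M1 replicate 1.

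Gata6, the factor of endoderm and of peritoneal macrophages (NCBI gene 14465, chromosome 18, 11052510 to 11085636), was covered mainly toward its low-coordinate end, with 23.2% to 57.97% of the gene body under called regions. Cover of its window was 46.9% and 36.2% in KO M2, 45.4% and 56.1% in WT M2, 44.1% and 52.3% in KO M1, 48.7% and 45.0% in WT M1, 31.3% in KO M0 and 29.4% in WT M0. Genotypes overlapped in M2 and in M1, and both M0 libraries were below every stimulated one. The main region began at -7.05 to -5.87 kb, over the antisense gene Gata6os, and ended at 7.51 to 19.2 kb. A second, shorter region was called in 5 libraries, and no called region reached past 22.3 kb. A stretch of 12.5 kb was common to all 10 libraries. Tags per kb were 53.2 and 102 in KO M2, 38.6 and 43.5 in WT M2, 38.3 and 34.2 in KO M1, 37.3 and 29.9 in WT M1, 135 in KO M0 and 149 in WT M0. In M0 the region was thus narrower and denser, and KO M2 replicate 2 resembled M0 in width, at 14.3 kb against 13.7 kb in KO M0 and 13.5 kb in WT M0. Its density exceeded that of 96.4% to 99.7% of regions of at least 5 kb.

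Zfpm1, the Friend of GATA protein of red cell and platelet precursors (NCBI gene 22761, chromosome 8, 122281856 to 122337862, plus strand), was the member whose cover varied most. Cover of its window was 23.3% and 24.7% in KO M2, 1.94% and 13.3% in WT M2, 12.2% and 15.2% in KO M1, 4.53% and 10.7% in WT M1, 40.9% in KO M0 and 32.1% in WT M0. KO lay above WT without overlap in each of the 3 states, and M0 lay above every stimulated library. The 2 lowest libraries were the WT replicate 1 libraries.

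Most of the difference in covered length lay in the first 25 kb of Zfpm1, just past its CpG-rich promoter. There 9.18 and 11.1 kb were covered in KO M2, 0 and 5.84 kb in WT M2, 5.77 and 6.39 kb in KO M1, 1.25 and 4.33 kb in WT M1, 21.4 kb in KO M0 and 15.9 kb in WT M0. KO was again above WT in each state, although KO M1 replicate 1 (5.77 kb) was close to WT M2 replicate 2 (5.84 kb), a library of another state. The first region of the gene began 0.012 to 0.536 kb past the gene start in 8 libraries and at 2.25 kb in WT M1 replicate 1, and WT M2 replicate 1 had none. That first region held 127 and 222 normalised tags in KO M2, 78.8 in WT M2 replicate 2, 67.3 and 55.8 in KO M1, 16.8 and 47.5 in WT M1, 479 in KO M0 and 354 in WT M0. The 5 kb flank before the gene had 1.754 and 3.18 kb covered in KO M2, 0 and 0.908 kb in WT M2, 0.8 and 1.6 kb in KO M1, 0 and 0.844 kb in WT M1, 2.17 kb in KO M0 and 1.06 kb in WT M0, so KO M1 replicate 1 was below WT M1 replicate 2 there. In the 5 kb flank past the far end KO and WT overlapped in both stimulated states, with 3.44 kb in KO M2 replicate 1 and 1.28 to 2.05 kb in the other 7 stimulated libraries. A region of 26.7 to 33.9 kb before the gene, over the high-coordinate end of the zinc finger gene Zfp469, ended at -6.48 to -1.82 kb and held 1115 and 1454 tags in KO M2, 451 and 885 in WT M2, 694 and 791 in KO M1, 679 and 712 in WT M1, 1863 in KO M0 and 1884 in WT M0. A short region past the far end of Zfpm1 was called in all 10 libraries, and 1.28 kb of it inside the window was common to all.

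**Figure D4:**
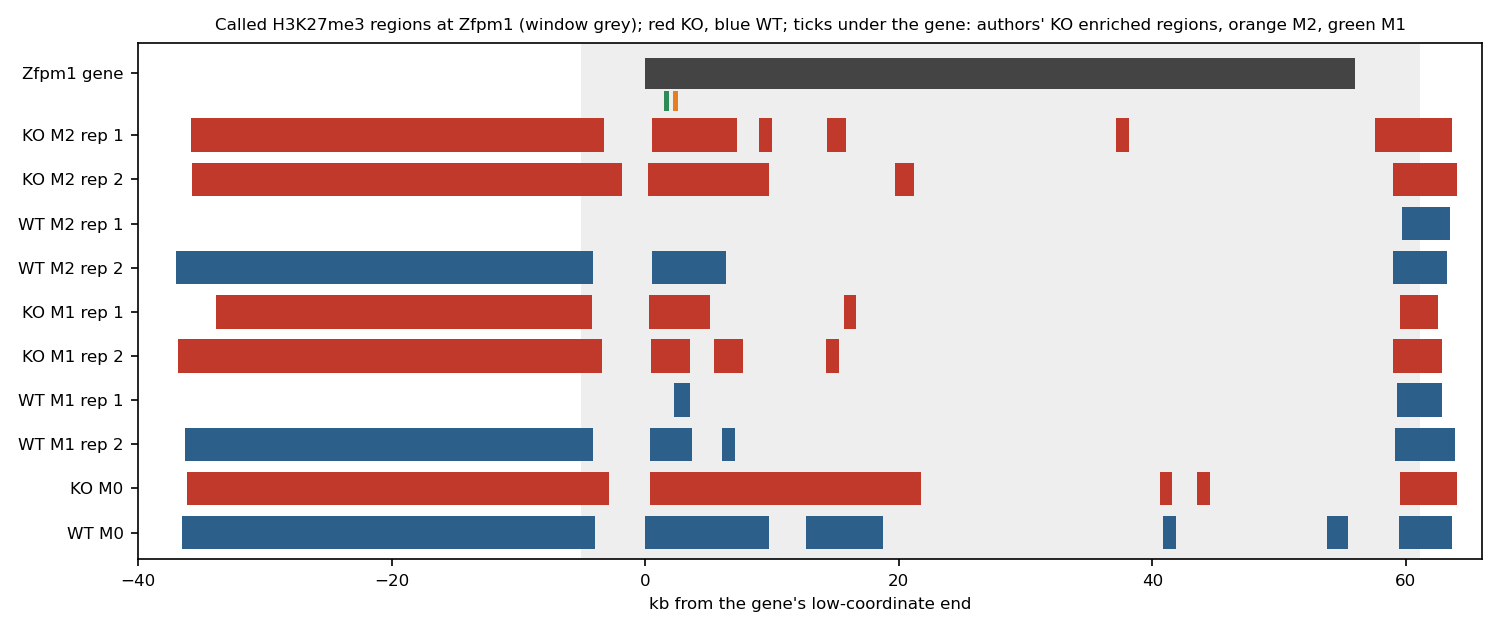
Called H3K27me3 regions that touch the Zfpm1 window, 1 row per library, red for KO and blue for WT, on an axis in kb from the low-coordinate end of the gene, which is its start (dark bar; window in grey). Ticks under the gene mark the authors' KO enriched regions, orange for M2 and green for M1. The region at the gene start is longest in KO M0 (21.4 kb), is 6.72 and 9.59 kb in KO M2, and is not called in WT M2 replicate 1.

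Zfpm2, the Friend of GATA protein of heart and gonad development (NCBI gene 22762, chromosome 15, 40655042 to 41104592), was covered at its low-coordinate end in all 10 libraries. Some libraries had further short regions inside the gene. Cover of its 460 kb window was 0.799% and 0.741% in KO M2, 1.28% and 0.870% in WT M2, 1.1% and 1.12% in KO M1, 0.953% and 2.82% in WT M1, 0.729% in KO M0 and 0.683% in WT M0. A single region of 3.14 to 4.88 kb, from between -2.13 and -1.31 kb to between 1.82 and 2.93 kb, was called in all 10 libraries, and 3.13 kb of it was common to all. The high value of WT M1 replicate 2 came with 7 further regions of 1 to 2.00 kb inside the gene. Regions of this kind were called once each in WT M2 replicate 1, KO M1 replicate 1 and KO M1 replicate 2 and in none of the other 6 libraries. Tags per kb of the region at the end of the gene were 41.3 and 59.3 in KO M2, 25.1 and 30.7 in WT M2, 20.4 and 27.1 in KO M1, 27.9 and 23.1 in WT M1, 72.4 in KO M0 and 88.9 in WT M0. KO M2 again had the highest densities of the stimulated libraries. Over all regions of at least 5 kb the median density was likewise higher in KO M2, at 18.5 and 20.8 tags per kb, against 14.8 and 17.5 in WT M2.

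The first comparison set the IL-4 state against the LPS and interferon state. None of the 7 members separated M2 from M1: the 4 M2 and 4 M1 libraries overlapped for every one. Over all 11041 autosomal genes with cover in these libraries, 1.1% had every M2 library above every M1 library and 2.17% every M2 library below, 3.28% together. Zfpm1 differed most, at 15.8% ± 10.5 over the M2 libraries and 10.6% ± 4.50 over the M1 libraries (SD, n = 4 each), a difference of 5.16 points (exact two-sided permutation p = 0.4). Leaving out 1 library at a time moved that difference between 2.20 and 9.78 points, the highest without WT M2 replicate 1. Gata5 averaged 94.0% ± 12.1 in the M2 and 97.9% ± 4.27 in the M1 libraries (SD, n = 4 each; exact permutation p = 1), and without the WT replicate 1 libraries the difference was 0. Gata3 averaged 68.0% ± 3.84 in the M2 and 70.8% ± 3.31 in the M1 libraries (SD, n = 4 each; exact permutation p = 0.314). For the other 4 members the M2 minus M1 differences ran from -1.35 points for Gata6 to 0.740 points for Gata2, with exact permutation p-values from 0.229 to 0.914. The smallest p that 4 against 4 libraries allow is 0.0286. After Benjamini-Hochberg adjustment over all genes, 0 of 11041 passed 0.05, where 362 had an unadjusted p under 0.05 in the same exact permutation test. With that smallest p, a gene can pass only if a large share of all genes reach it. Without WT M2 replicate 1, Zfpm2 was lower in all 3 remaining M2 libraries than in every M1 library, as were 3.63% of all genes, with 13.1% separating the other way (exact permutation p = 0.143, adjusted p = 0.439).

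The second comparison set KO against WT cells within each state. Zfpm1 was the 1 member of 7 with every KO library above every WT library of its state, and 0 members had the opposite pattern. Over all 11576 genes with cover, 3.78% had KO above WT in this way and 0.605% had KO below, 4.38% together. The median gene had a KO minus WT difference of 0.763 points. Zfpm1 had 24.0% ± 0.961 in KO M2 and 7.61% ± 8.03 in WT M2, and 13.7% ± 2.17 in KO M1 and 7.60% ± 4.34 in WT M1 (SD, n = 2 each). The mean KO minus WT difference within states was 10.8 points, with KO higher in 5 of 5 libraries (exact two-sided permutation within state, p = 0.0278, the smallest that 72 arrangements give). Over all genes, 7.09% had a higher KO minus WT difference than Zfpm1. The adjusted p was 0.634, and 0 of 11576 genes passed 0.05 after Benjamini-Hochberg adjustment, against 507 with an unadjusted p under 0.05 in the same exact permutation test. Here too a gene could pass only if a large share of all genes reached the smallest p. Without the WT replicate 1 libraries the Zfpm1 difference was 7.40 points, KO remained above WT in each state, and p was 0.0556 in the exact permutation test, the smallest that 18 arrangements give. In that setting 6.12% of all genes had KO above WT. Without the M0 pair the difference was 11.2 points and p was again 0.0556 (exact permutation), the smallest that 36 arrangements give, beside 5.49% of all genes with KO above WT. The separation was lost with 10 kb flanks, where KO M1 replicate 1 had 19.2% and WT M1 replicate 2 had 19.6%, and with the upper 50% of regions by score, where these libraries had 4.92% and 7.87%. Whether the state of the WT replicate 1 libraries accounts for part of the difference was not tested. In bulk chromatin, a mark present in fewer cells and less of the mark per cell cannot be told apart.

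**Figure D5:**
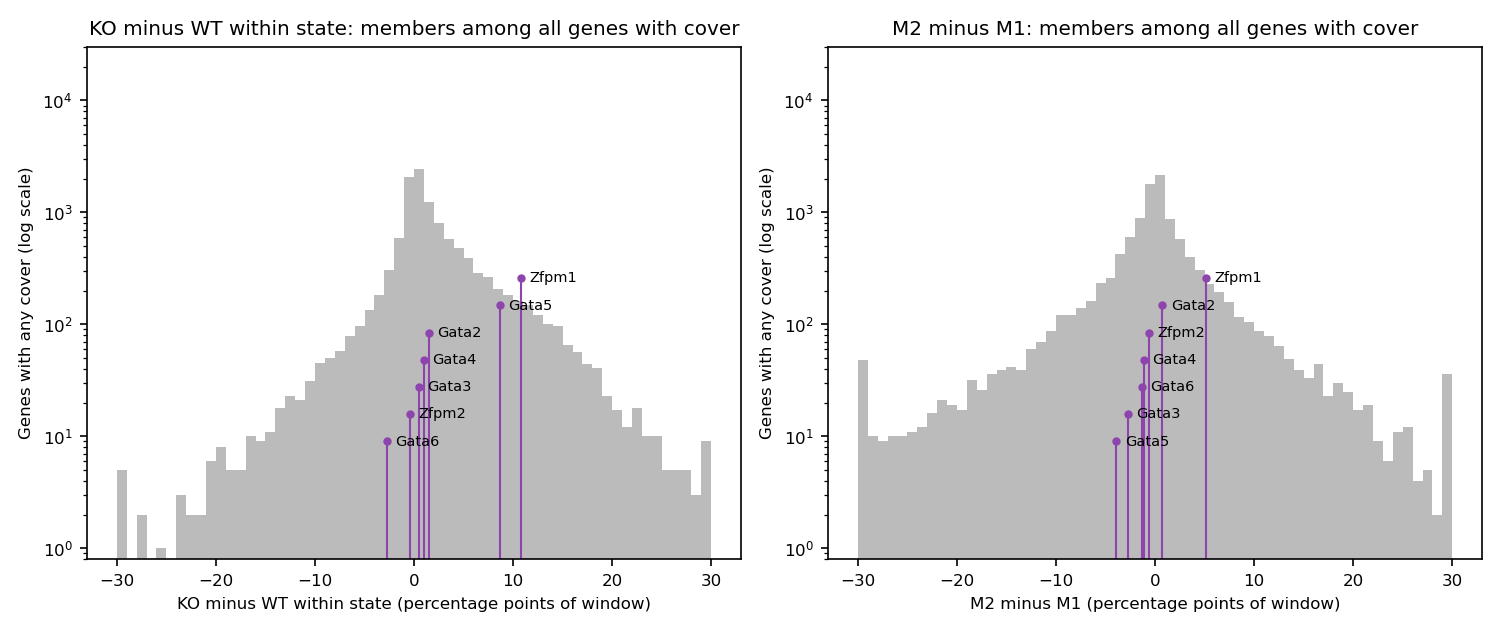
Histograms of the KO minus WT difference within states (left) and of the M2 minus M1 difference (right) in percentage points of the gene window over all autosomal genes with any cover, on a log count axis, with the 7 members as purple pins whose heights carry no meaning. The end bins hold all genes beyond 29 points. Zfpm1 is at 10.8 points on the left, to the right of the other 6 members, and at 5.16 points on the right.

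The other 6 members had no such separation. Gata5 had the second largest KO minus WT difference, 8.67 points (exact permutation p = 0.25), which reflects the 3 WT libraries under 100%. Without the WT replicate 1 libraries it was 2.89 points (exact permutation p = 1). The differences were -2.75 points for Gata6, -0.425 for Zfpm2, 0.527 for Gata3, 0.968 for Gata4 and 1.46 for Gata2, with exact permutation p-values from 0.167 to 0.806. Within M2 alone, KO lay above WT without overlap for Gata2, Gata4 and Zfpm1 and below it for Zfpm2, which is 3 and 1 of 7 members beside 28.6% and 10.7% of all genes. Within M1 alone, KO lay above WT for Gata3 and Zfpm1 and below for 0 members, beside 16.2% and 8.2% of all genes. With 2 libraries against 2 no p under 0.333 is possible, and these shares show how often such small groups separate. KO M2 minus WT M2 was 16.4 points for Zfpm1 and KO M1 minus WT M1 was 6.09 points, a difference between states that was not tested. With WT replicate 2 alone as the WT, a choice made after seeing the data, the values were 10.7 points in M2 and 3.02 points in M1.

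The authors' deposited tables of differential regions list 2 regions at member windows, both at Zfpm1 and both under KO enriched. Of all 20661 genes, 3.59% had a window touching a KO enriched region of the authors' deposited table for M2, 0.208% one of the table for M1 and 0.0532%, 11 genes, one of each. In the authors' deposited table for M2, the region at chromosome 8, 122284040 to 122284440, had a log2 fold of KO over WT of 1.63, a p-value of 0.00111 and a false discovery rate of 0.147, and ranked 156 of 1049 by p-value. In the authors' deposited table for M1, the region at 122283299 to 122283699 had a log2 fold of 1.38, a p-value of 0.00825 and a false discovery rate of 1.00, and ranked 75 of 93. They lie 2.18 to 2.58 kb and 1.44 to 1.84 kb past the gene start, inside the region at the start of Zfpm1 that was called in 8 libraries. In the region lists the M2 position was wholly covered in 8 libraries, 83.5% covered in WT M1 replicate 1 and uncovered in WT M2 replicate 1, and the M1 position was wholly covered in 8 and uncovered in both WT replicate 1 libraries. The tables come from the same cells, and Zfpm1 was known to be listed in both when the genes were chosen, so they are not independent of the cover given above.

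The unstimulated libraries were set beside the stimulated ones as values. Zfpm1 was at 40.9% in KO M0 and 32.1% in WT M0, above all 8 stimulated libraries, which ran from 1.94% to 24.7%. Gata3, Gata6 and Zfpm2 were below all 8 in both M0 libraries. These are 1 and 3 of 7 members, beside 9.74% of genes with both M0 libraries higher and 17.6% with both lower. The M0 minus stimulated difference was 23.3 points for Zfpm1 and -16.5 points for Gata6, and between -7.20 and 1.12 points for the other 5. In tags per kb the Gata2, Gata3, Gata6 and Zfpm2 regions were denser in M0 than in any stimulated library. Ranked within its own library, none of them stood higher in M0. The Gata3 region was denser than 91.7% and 93.5% of regions of at least 5 kb in M0, below the 95.4% to 98.5% of the stimulated libraries. For Gata2, Gata6 and Zfpm2 the M0 shares lay inside the stimulated range. The median density of regions of at least 5 kb was also higher in M0, 24.5 tags per kb in KO M0 and 26.1 in WT M0, against 14.8 to 20.8 in the stimulated libraries. Fragment length and state cannot be told apart here.

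Genes that act with or under GATA factors in other tissues were covered more widely than GATA partners of blood cells. Over all 20661 genes, 11576 had some cover and 1636 had at least 50% in every library, with a median of 0.563%. Of 20 genes that act with or under GATA factors in heart, gut and other tissues, 18 had some cover and 12 had at least 50% in every library, with a median of 76.5%. Nkx2-5 and Myh6 of the heart and Cdx2 of the gut were at 100% in all 10 libraries, and Srf and the cardiac actin gene Actc1 at 0%. The 8 genes of this list short of 50% in some library had mean cover of up to 47.6%, the highest being Amh. In this list Isl1, a second heart field factor, was lower in M2 than in M1 without overlap, by -13.9 points, the 1 gene of 20 beside 2.17% of all genes (exact permutation p = 0.0286, adjusted p = 0.83). None of the 20 separated KO from WT. Of 20 partners in blood cells, 18 had some cover and 1 had at least 50% in every library, Gfi1b, a repressor of the red cell lineage at 100%. The median of that list was 8.34%, Spi1, the master factor of macrophages, and Mitf were at 0%, and 0 of 20 separated the states or the genotypes.

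Gata3's neighbours in T cell fate were covered to a median of 52.7% over the 14 genes matched, and 4 had at least 50% in every library. Eomes, a T-box factor of cytotoxic cells, was at 100% in all 10 libraries, and Notch1 and Maf were at 0%. KO was above WT in every state for 2 of the 14, beside 3.78% of all genes. They were Ccr4, a T helper type 2 chemokine receptor, with a KO minus WT difference of 19.3 points, and Il5, the eosinophil cytokine, with 9.32 points (each exact permutation p = 0.0278, adjusted p = 0.634). Without the WT replicate 1 libraries the differences were 11.1 points for Ccr4 and 6.04 points for Il5 (each exact permutation p = 0.0556, adjusted p = 0.969). Cover of Ccr4 was 79.9% and 73.0% in KO M2, 18.9% and 49.6% in WT M2, 46.3% and 51.9% in KO M1, 40.7% and 46.3% in WT M1, 60.0% in KO M0 and 59.0% in WT M0. The M1 and M0 genotypes of Ccr4 lay close to each other, and most of the difference stood in M2, at 42.3 points, or 26.9 points with WT M2 replicate 2 alone. Il5 had 82.2% and 79.7% in KO M2, 65.8% and 72.1% in WT M2, 81.5% and 82.0% in KO M1, 67.7% and 76.2% in WT M1, 52.6% in KO M0 and 49.6% in WT M0. Of these genes 0 separated M2 from M1.

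The genes of the NuRD complex and of other GATA zinc finger proteins, listed together with Ctbp1 and Ctbp2, had little cover. Of 16 genes, 7 had some cover, 0 had 50% in every library and the median was 0%. Over all 20661 genes, 11576 had some cover, 1636 had 50% in every library and the median was 0.563%. Little cover was therefore not particular to this list. Chd4, Mta2, Hdac1, Mbd2, Mbd3, Rbbp4, Gatad2a and Gatad2b of the complex, and Gatad1, were at 0% in all 10 libraries, and the most covered were Mta1 and Chd3, with means of 11.3% and 9.77%. Chd3, a chromatin remodelling ATPase of the complex, had an M2 minus M1 difference of -1.82 points without overlap, 1 gene of 16 beside 2.17% of all genes (exact permutation p = 0.0286, adjusted p = 0.83). Mta1, another subunit, lay above WT in KO in every state by a mean of 2.87 points, 1 of 16 beside 3.78% of all genes (exact permutation p = 0.0278, adjusted p = 0.634), and by 1.41 points without the WT replicate 1 libraries. Of 15 genes listed for the peritoneal macrophage programme of Gata6, 11 had some cover, 0 had 50% in every library and the median was 4.29%. The most covered was Wt1, the kidney and mesothelium factor that also stands in the heart and gut list, with a mean of 38.8%, and Prg4, Serpinb2, Cd93 and Cxcl13 were at 0% in all 10 libraries. Selp, the gene of the adhesion molecule P-selectin, had an M2 minus M1 difference of -17.5 points without overlap, 1 of 15 beside 2.17% of all genes (exact permutation p = 0.0286, adjusted p = 0.83). Rarb, a retinoic acid receptor, had KO below WT in every state with a mean KO minus WT difference of -0.294 points, 1 of 15 beside 0.605% of all genes (exact permutation p = 0.0278, adjusted p = 0.634), or -0.361 points without the WT replicate 1 libraries.

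Genes under GATA factors in red cells, mast cells and platelets had a median of 7.95% over the 14 matched, with 9 having some cover and 4 at least 50% in every library. Slc4a1, the anion exchanger of the red cell membrane, was at 100% in all 10 libraries and the alpha globin gene Hba-a1 had a mean of 87.6%, while the beta globin gene Hbb-bt, the mast cell genes Cpa3 and Fcer1a and the platelet genes Pf4 and Gp1ba were at 0% in all 10. None of these separated the states or the genotypes. Among marker lists of the other cell types a marrow culture could hold, KO was above WT in every state for Prtn3, 1 of 4 neutrophil markers, and Kdr, 1 of 4 endothelial markers, beside 3.78% of all genes, and for none of the markers of macrophages, T cells, B cells, red cells, mast cells and fibroblasts. The KO minus WT difference was 13.4 points for Prtn3 and 4.70 for Kdr (each exact permutation p = 0.0278, adjusted p = 0.634), and without the WT replicate 1 libraries 9.16 and 5.18 points. The median KO minus WT difference of these lists was 7.64 points for neutrophils, 7.08 for T cells, 4.01 for B cells, 1.66 for endothelial cells, 1.29 for fibroblasts, 0.942 for red cells, -0.721 for macrophages and -1.66 for mast cells. The summed percent of the 4 neutrophil markers was 137 to 175 in KO M2 and 69.97 to 145 in WT M2, 97.0 to 114 in KO M1 and 87.7 to 96.6 in WT M1. It was 190.3 in KO M0 and 167 in WT M0. Of the 4, Camp was covered in KO M2 replicate 1 alone, at 2.25%, so the sums rest on Elane, Mpo and Prtn3. For Mpo, KO and WT overlapped in M2 and in M1. In M2, WT replicate 2 lay above both KO libraries for Mpo and WT replicate 1 below both. The part of the cell types of these lists in the Zfpm1 difference was not tested.

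Of the 3 members that varied by at least 20 points over the 10 libraries, Zfpm1 was most like Inhbc (Pearson r = 0.988 over 10 libraries), Prtn3 (r = 0.976) and Prss57 (r = 0.973). Prtn3 and Prss57 encode neutrophil granule serine proteases and Inhbc an inhibin subunit. Cover ran from 18.2% to 64.1% for Prtn3, from 20.3% to 74.1% for Prss57 and from 0% to 18.2% for Inhbc. Gata5 was most like Sez6 (r = 0.977), Rnf222 (r = 0.971) and Sdr39u1 (r = 0.969), and Gata6 most like Olfr464 (r = 0.971), Nwd2 (r = 0.969) and Vldlr (r = 0.965), each over the same 10 libraries. The 10 libraries share states, depth and the WT replicate 1 pair, and these genes were picked as the closest of all genes, so the coefficients are descriptions.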

How the data were processed

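H3K27me3 regions from 10 ChIP-seq libraries were analysed. The submitters' processing notes name the mm10 build and the tools HOMER 4.8, DiffBind 2.0.2, Bowtie2 2.4.2, deepTools 3.5.1 and SAMtools 1.10. Per the file headers, the authors called regions in each library separately with HOMER in region mode, with 1000 bp windows, a false discovery rate of 0.001 and joining over gaps no wider than 2500 bp, so 1 gap can split or join a region. Per the file headers, the signal column gives tags scaled by the authors to a library of 10 megatags, and each region has the authors' score and a clonal fold ratio. The deposited differential tables give the authors' log2 fold, p-value and false discovery rate for regions of 401 bp. Which libraries and scaling lie behind these tables is not given in the sources used here.

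Regions were merged per library, and the percent of each gene window under them was computed with scipy 1.17.1, pandas 2.3.3 and numpy 2.4.6 under Python 3.11.15, with genes from a RefSeq table of GRCm38.p6, the same build as mm10. That table holds no strand, which was taken from the promoter table for members with an entry there. Exons and introns were not analysed here. Exact two-sided permutation of the labels set 4 M2 against 4 M1 libraries, and KO against WT within state, for every gene with cover, with Benjamini-Hochberg adjustment over all of them. Replicates are separate biological samples, per the series' design text. The second test includes the M0 pair. Within 1 state alone, and for M0 against the stimulated libraries, values are given without a test. On simulated data, 198 of 200 genes shifted by 4 SD were recovered at p under 0.05 in each comparison over 11576 genes. Tags in regions have 95% Wilson intervals of at most 0.0267 points to either side, covering counting error only. The genes named are all members, the 3 genes most like each member that spans 20 points or more, and from each list the genes that separate states or genotypes and those with the highest and lowest cover (up to 2 each, all where tied at 0% or 100%). The members and lists were chosen with earlier results of these data known. Alternatives were other flanks, a score filter, scaling to total cover, leaving out libraries and a replicate block. The departures of same-numbered libraries from their group means, not their cover itself, correlated over genes at -0.111 (KO and WT M2) and -0.0408 (KO and WT M1). The values were 0.0274 (KO M2 and M1) and 0.165 (WT M2 and M1), so the numbers were not taken as pairs.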

Additional observations from a re-analysis of the deposited data

Results flagged for a closer look

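A gap test within M2 and within M1, each with 4 libraries, marked 1 library far from the other 3 in 6 of 14 sets of values. Chance marks about 1 in 20 sets of normally spread values, a rate that cannot be applied here, since 3 of the 6 have 3 libraries tied at 100% and the same test marked 19.5% of the 19958 sets over all genes. For Gata2 in M1, WT M1 replicate 2 was at 100% of the window, against 94.4% to 95.2% in the other 3. For Gata4 in M2, KO M2 replicate 1 was at 100%, against 97.6% to 97.9%, and in M1, WT M1 replicate 2 was at 97.8% with the other 3 at 100%. These 3 sets differ by where a region ends outside the gene body. For Gata5, WT M2 replicate 1 was at 75.8% and WT M1 replicate 1 at 91.5%, with the other 3 libraries of each state at 100%. Both are the libraries with many called regions on the X chromosome. For Zfpm2 in M1, WT M1 replicate 2 was at 2.82%, against 0.953% to 1.12%, through 7 further short regions inside the gene.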

How the results depend on the processing

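The KO minus WT difference of Zfpm1 kept its direction under all 15 alternatives, from 7.40 to 12.4 points, with exact permutation p-values from 0.0278 to 0.0625 and adjusted p-values from 0.427 to 1.00. KO and WT stayed apart in 13 of the 15. With 10 kb flanks, and with the upper 50% of regions by score, the count of members separating KO from WT was 0, against 1. The count separating M2 from M1 was 1 (Zfpm2, lower in M2), against 0, without WT replicate 1 in both states and without WT M2 replicate 1, so leaving out 1 library at a time gave 0 to 1. In these settings 24.6% and 16.8% of all genes separated the states, against 3.28%. No gene passed the adjusted threshold in either comparison under any alternative run. Without both WT replicate 1 libraries, with either replicate block and without the M0 pair, none could pass. There the smallest possible exact permutation p was 0.0556 to 0.125. At an authors' p-value under 0.001 the listed regions at members numbered 0, against 2.

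Several small differences changed sign. For M2 minus M1, the score filter gave -47.5 points for Gata2 and 14.8 for Gata3, since whole domains with low scores were dropped in some libraries. Scaling to covered length gave 0.867 for Gata3, 4.08 for Gata4, 0.198 for Gata5 and 0.792 for Gata6. Leaving out 1 library gave -0.303 to 2.03 for Gata2, -6.04 to 2.14 for Gata5 and -4.67 to 1.97 for Gata6. For KO minus WT, the score filter gave 20.5 points for Gata4, 18.9 for Gata2, 13.0 for Gata3 and -12.02 for Gata6, and scaling gave -5.54 for Gata2, -4.33 for Gata3 and -6.51 for Gata4. For Gata3, leaving out 1 library gave -0.688 to 2.22, and leaving out both WT replicate 1 libraries gave -1.30. Otherwise the cause was not tested.

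With the replicate number as a block, Zfpm1 kept its difference of 10.8 points (exact permutation p = 0.0625 over 32 arrangements). The counts of members stayed at 0 and 1. No gene could pass adjustment, since the smallest possible exact permutation p was 0.0625 for KO against WT and 0.125 for M2 against M1. A block with the numbers crossed in M2, chosen after seeing the data, gave 1 member and 0 genes, where again none could pass. Region lists hold no tags outside called regions, so a mark below the calling threshold is not seen at this depth.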
